A study of Mus musculus with 3 samples.

Results

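The mitochondrial respiratory chain passes electrons from NADH and succinate through complexes I to IV to oxygen, and complex V, the ATP synthase, uses the resulting proton gradient to make ATP. A few core subunits are encoded in mitochondrial DNA, and the rest, described here, are encoded in the nucleus and imported. Alveolar macrophages take up and oxidise surfactant lipid, and PPARγ, a nuclear receptor for fatty acid ligands, is needed for their development and lipid handling.

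The nuclear-encoded subunits were taken by symbol: genes starting with Ndufa, Ndufb, Ndufc, Ndufs, Ndufv, Uqcr, Cox4i, Cox5, Cox6, Cox7, Cox8 or Atp5, and the 4 Sdh genes, without the Ndufaf assembly factors. Of 86 such genes, 83 had at least 20 molecules over the cells that passed the quality limits, out of 32285 genes listed and 16188 that reach the same 20. Complex I (NADH dehydrogenase) has 39 members, complex II (succinate dehydrogenase) 4, complex III (cytochrome bc1) 8, complex IV (cytochrome c oxidase) 15 and complex V 17. The other 3 are Cox8b with 10 molecules, Cox7b2 with 1 and Cox8c with 0; these are known as the muscle form of subunit 8 and testis forms of subunits 7b and 8. Ndufa4, counted under complex I by its symbol, is known today as a complex IV subunit. Ndufb1-ps carries a pseudogene symbol and is annotated as a bidirectional promoter lncRNA in GENCODE vM21, while the other members are protein-coding.

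The study profiled single cells of mouse lung in an inducible model of EGFR-mutant lung adenocarcinoma, with and without PPARγ in macrophages. All animals carried Ccsp-rtTA and TetO-EGFRL858R, which place the EGFR mutant under doxycycline control in club-cell-lineage airway epithelium, and the labels give doxycycline chow at 625 ppm and an age of 16 to 20 weeks for all groups. The library called WT healthy here has these alleles alone. It is called healthy after its sample title, although the EGFR alleles and the chow are given for all groups. WT tumour also has the floxed Pparγ fl/fl alleles without Cre, and PPARg-/- tumour has Pparγ fl/fl with Csf1rCre, a driver active across the monocyte and macrophage lineage and not in alveolar macrophages alone. Each group is 1 library pooled from 3 mice, so no value below has a replicate and no difference between groups could be tested. Cells were sorted as CD45+CD11c+SigF+, CD45+CD11b+Ly6G-, CD45+CD3+ and CD45-EPCAM+ and mixed in equal proportion, so shares of cell types were set by the sort.

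The 3 libraries hold 30454790, 46148658 and 44548318 UMIs (unique molecular identifiers, 1 per captured RNA molecule), in the order WT healthy, WT tumour, PPARg-/- tumour, which is kept throughout. After filtering, 2872, 4260 and 4986 cells were kept, and pairs of libraries shared 4 to 6 cell barcodes. Levels are CPM, the UMIs of a gene summed over all cells of a class in a library and scaled to a total of 1000000 UMIs; because 3′ counting gives 1 UMI per molecule, no correction for gene length was made. Cells were clustered without the subunit genes, and clusters were named by marker genes: each class name below stands for cells that resemble that type. A class is called cycling where at least 3 cycling markers were raised in its cluster, which does not say that most of its cells cycle. The cycling T cell cluster is led by Ccl5, Gzma, Nkg7 and Cd8b1. At resolution 2.0 the T cell cluster called cycling has 15, 21 and 10 cells and is led by Igkc, Igha and Hist1h1b. Another, of 63, 170 and 196 cells and led by Ccl5, Nkg7, Gzma and Cd8b1, is not called cycling. The cycling dendritic cell cluster is led by Mgl2 and Ccl17 and is not called cycling with a 5% mitochondrial limit, nor in WT tumour clustered alone. The healthy library differs from both tumour libraries in Xist, the X-inactivation RNA (1236, 0.18 and 0.31 CPM over all kept cells), and in the Y-linked Ddx3y (0.13, 81.6 and 74.4 CPM), although the labels say that both sexes were used about equally. Tumour state, sex of the cells and the floxed alleles therefore cannot be told apart in WT tumour against WT healthy.

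The cells called main macrophages are the biggest cluster of each library, cycling cells aside, in which 5 or more of 10 alveolar macrophage markers were raised: 847, 942 and 78 cells. The healthy cells and the tumour cells lay in separate clusters: cluster 12, led by Chil3, Fabp1 and Mrc1, held the 847, and cluster 15, led by Wfdc21, Chil3 and Car4, held both the 942 and the 78. All 10 alveolar markers were detected in them, with summed levels of 20508, 19974 and 17078 CPM. In PPARg-/- tumour most macrophages lay in another cluster of 1157 cells, in which 7 of 12 C1q macrophage markers and 4 of 10 alveolar markers were raised (19284 CPM of C1q markers and 12714 CPM of alveolar markers, against 1322 CPM of C1q markers in the 78 main macrophages). That C1q cluster is described beside the 78 cells, a choice made after the clusters were seen. Pparg itself stood at 199, 173 and 284 CPM in main macrophages and 376 CPM in the C1q cluster; the floxed exons are not stated in the labels and counting is at the 3′ end, so this does not check the deletion.

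In main macrophages the 83 subunits together made up 17718, 22048 and 21691 CPM, and 20150 CPM in the C1q cluster. Complex V was the largest part by summed level (5544, 6794 and 6756 CPM), followed by complex I (5351, 6651 and 6701 CPM) and complex IV (4768, 6081 and 5752 CPM). Complex III stood at 1653, 2062 and 2019 CPM and complex II, with 4 genes, at 402, 460 and 463 CPM. The 13 mitochondrially encoded subunits were at 62406, 61434 and 62719 CPM in the same cells, above the nuclear-encoded sum in each library. Barcodes with 10 to 100 UMIs, which hold free RNA and no whole cell, had 21184, 24750 and 23133 CPM of the nuclear-encoded subunits, above the level of the main macrophages in each library.

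The 5 members with the most UMIs over all kept cells were Cox4i1, the ubiquitous form of the regulatory subunit 4 of complex IV, Cox8a, the ubiquitous form of its subunit 8, the ATP synthase subunits Atp5e (epsilon) and Atp5l (g), and Ndufb1-ps. In main macrophages Cox4i1 was at 796, 1104 and 1110 CPM, the highest of these 5. Atp5l was at 608, 798 and 730 CPM and Ndufb1-ps at 605, 764 and 819 CPM. Atp5e was at 524, 668 and 678 CPM and Cox8a at 515, 651 and 629 CPM. Each of the 5 was lower in WT healthy than in both tumour libraries. Natural killer cells held more Cox8a than main macrophages in every library, at 847, 1234 and 911 CPM.

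Among the 9 non-cycling classes with at least 50 cells in WT tumour, main macrophages had the highest summed subunit level and B cells the lowest (12174 CPM), a ratio of 1.81 (95% interval 1.74 to 1.88). Intervals here and below are exact and cover counting error only, not the spread between animals. AT1 cells, the flat epithelial cells of gas exchange, stood at 18863 CPM, classical monocytes at 18223 CPM and AT2 cells, the surfactant-making epithelium, at 17759 CPM. C1q or interstitial macrophages had 16329 CPM, endothelial cells 15160 CPM, T cells 14414 CPM and nonclassical monocytes 13585 CPM. Cycling alveolar macrophages, outside these 9 classes, had the highest level in that library, 24044 CPM. Of the 83 members, 38 were highest in main macrophages. For the 76 members whose lowest class lay above 3 UMIs, the highest class exceeded the lowest by 1.48-fold (Cox7c, a small complex IV subunit) to 6.68-fold (Ndufc2, an accessory complex I subunit), with a median of 2.11-fold.

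**Figure D1:**
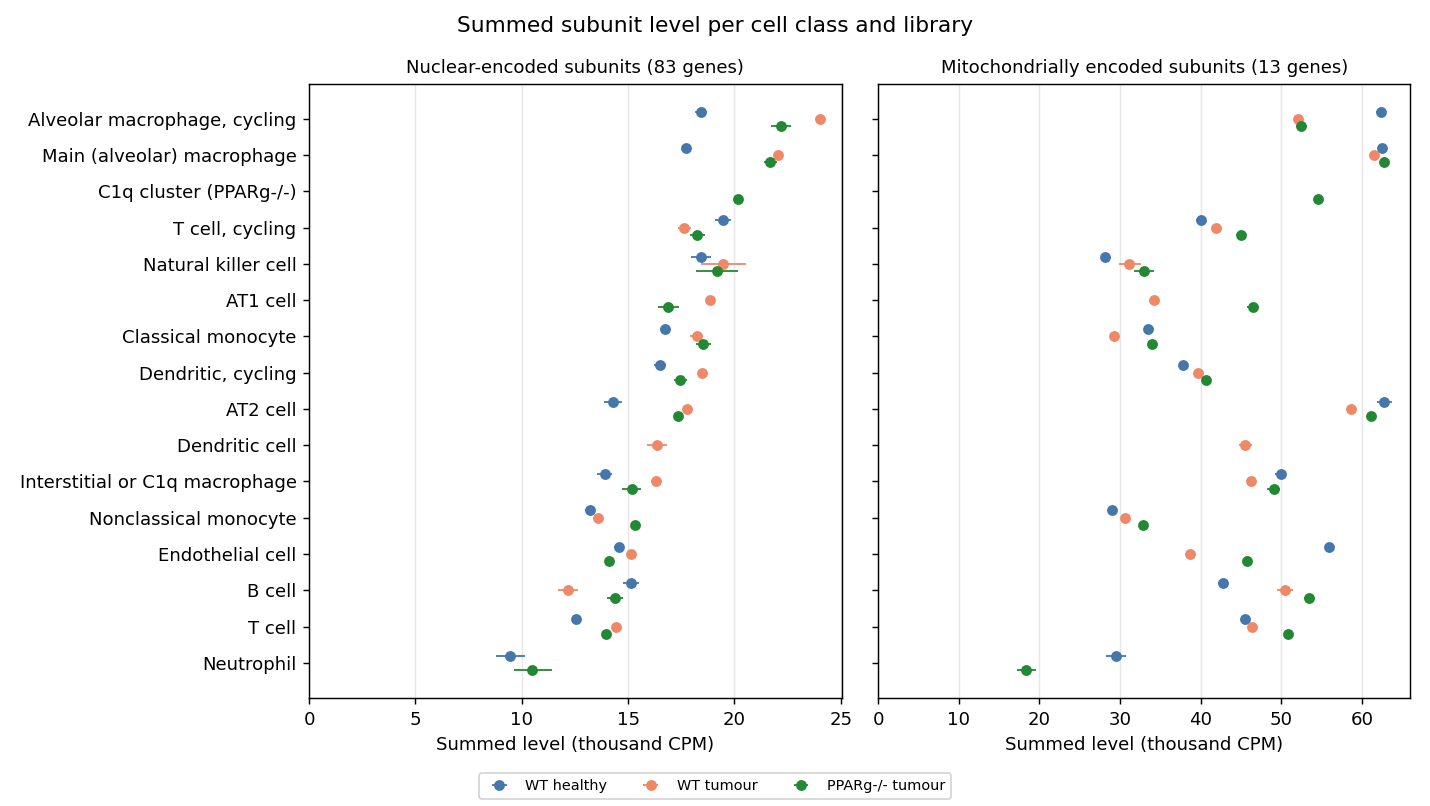
Summed CPM of the 83 nuclear-encoded subunits (left) and of the 13 mitochondrially encoded subunits (right) per cell class, with 1 point per library and class of at least 20 cells and bars for the 95% counting interval. Main macrophages sit at 17718 to 22048 CPM on the left, above T cells at 12550 to 14414 CPM, while on the right the libraries differ most in endothelial and AT1 cells.

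The complexes kept similar shares of the subunit UMIs across cell types. Over 42 combinations of class and library, complex I took 23.8 to 36.5% (median 30.3%), complex IV 22 to 31.7% (median 26.3%) and complex V 28.1 to 34.3% (median 31.2%). Complex III took 8.60 to 11.3% and complex II 1.15 to 2.64%. Endothelial cells stood at 35.8, 35.3 and 36.5% for complex I and 22.6, 23.1 and 22.8% for complex IV. Main macrophages had less of complex I (30.2, 30.2 and 30.9%) and more of complex IV (26.9, 27.6 and 26.5%), in each library.

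Cox4i1, Cox6a1, Cox6b1, Cox7a2 and Ndufa4 each have a second gene known for a tissue or oxygen dependent form. Of these second genes, Cox6a2 and Cox6b2 had the widest spans between cell types in WT tumour. Cox6a2, the striated muscle form of complex IV subunit 6a, was at 201, 121 and 126 CPM in AT2 cells, beside 215, 280 and 257 CPM for Cox6a1, the ubiquitous form. At least 1 Cox6a2 UMI was found in 17 of 40, 72 of 176 and 78 of 167 AT2 cells, but in 0 of 846, 0 of 1177 and 2 of 1417 T cells, where the first 2 counts allow shares of T cells with a UMI, not of T cells expressing the gene, of up to 0.355% and 0.255%. The median cell held 7632, 14031 and 13014 UMIs in AT2 cells and 3725, 3036 and 2746 in T cells. AT1 cells of the 2 tumour libraries had 29.5 and 7.19 CPM. Main macrophages had 0.45, 0.48 and 2.04 CPM of Cox6a2 against 364, 390 and 382 CPM of Cox6a1. Free RNA held 7.90, 38.2 and 16.5 CPM of Cox6a2.

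Cox6b2, known as the testis form of subunit 6b, was at 68.2, 78.3 and 55.2 CPM in main macrophages and 49.4 CPM in the C1q cluster. It had a UMI in 421 of 847, 547 of 942 and 29 of 78 main macrophages, and in 3 T cells of each library (0.92, 0.80 and 0.75 CPM). Free RNA held 55.3, 62.6 and 37.5 CPM of Cox6b2, not far below the main macrophage level. Cycling alveolar macrophages held 88.4, 70.5 and 76.0 CPM and cycling dendritic cells 20.6, 35.4 and 40.7 CPM of Cox6b2. Its ubiquitous partner Cox6b1 stood at 435, 597 and 553 CPM in main macrophages, several-fold above it in every library. Cox7a1, the heart and muscle form of subunit 7a, was low, and in the WT libraries highest in main and cycling alveolar macrophages and AT1 cells: 8.38, 13.8 and 7.15 CPM in main macrophages, against 269, 342 and 293 CPM for Cox7a2. Free RNA held 8.40, 13 and 6.59 CPM of Cox7a1, close to the main macrophage level.

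Among named classes of at least 20 cells, Cox4i2, the lung and hypoxia-linked form of subunit 4, was highest in endothelial cells, at 28.6, 12.4 and 16.3 CPM (28, 14 and 22 UMIs), followed by AT2 cells at 3.47, 10.8 and 6.36 CPM. Ndufa4l2, the hypoxia-induced relative of Ndufa4, was also highest in endothelial cells among these classes, with 8, 3 and 11 UMIs (8.18, 2.65 and 8.16 CPM). Smaller and unnamed classes were not ranked, among them a cluster of 6, 0 and 2 cells led by Gucy1a1, Pdzd2 and Postn. Free RNA held 16.8, 2.77 and 2.47 CPM of Cox4i2 and 7.41, 1.11 and 4.12 CPM of Ndufa4l2, so the healthy AT2 value of Cox4i2 lies below free RNA and the healthy endothelial value of Ndufa4l2 is close to it. Main macrophages had 0.99 and 0.48 CPM of Cox4i2 in WT healthy and WT tumour and 0 UMIs in the 78 cells. Cox7a2l, which takes part in joining complexes III and IV into supercomplexes, was higher in T cells (532, 524 and 589 CPM) than in main macrophages (271, 323 and 358 CPM) in all 3 libraries. Cox7b, a single-form subunit in these cells since Cox7b2 was at 1 UMI, stood at 342, 454 and 399 CPM in main macrophages.

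The 3 genes for subunit c of the ATP synthase, which encode the same mature protein, were all expressed in main macrophages: Atp5g1 at 205, 253 and 299 CPM, Atp5g2 at 452, 536 and 544 CPM, and Atp5g3 at 287, 343 and 336 CPM. Complex II also links the chain to the tricarboxylic acid cycle, and its 4 genes lay close together: Sdha (the flavoprotein) at 140, 164 and 166 CPM, Sdhb (the iron-sulfur subunit) at 84.9, 104 and 78.7 CPM, and the membrane anchors Sdhc at 99.9, 104 and 130 CPM and Sdhd at 76.4, 87.4 and 88.9 CPM.

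**Figure D2:**
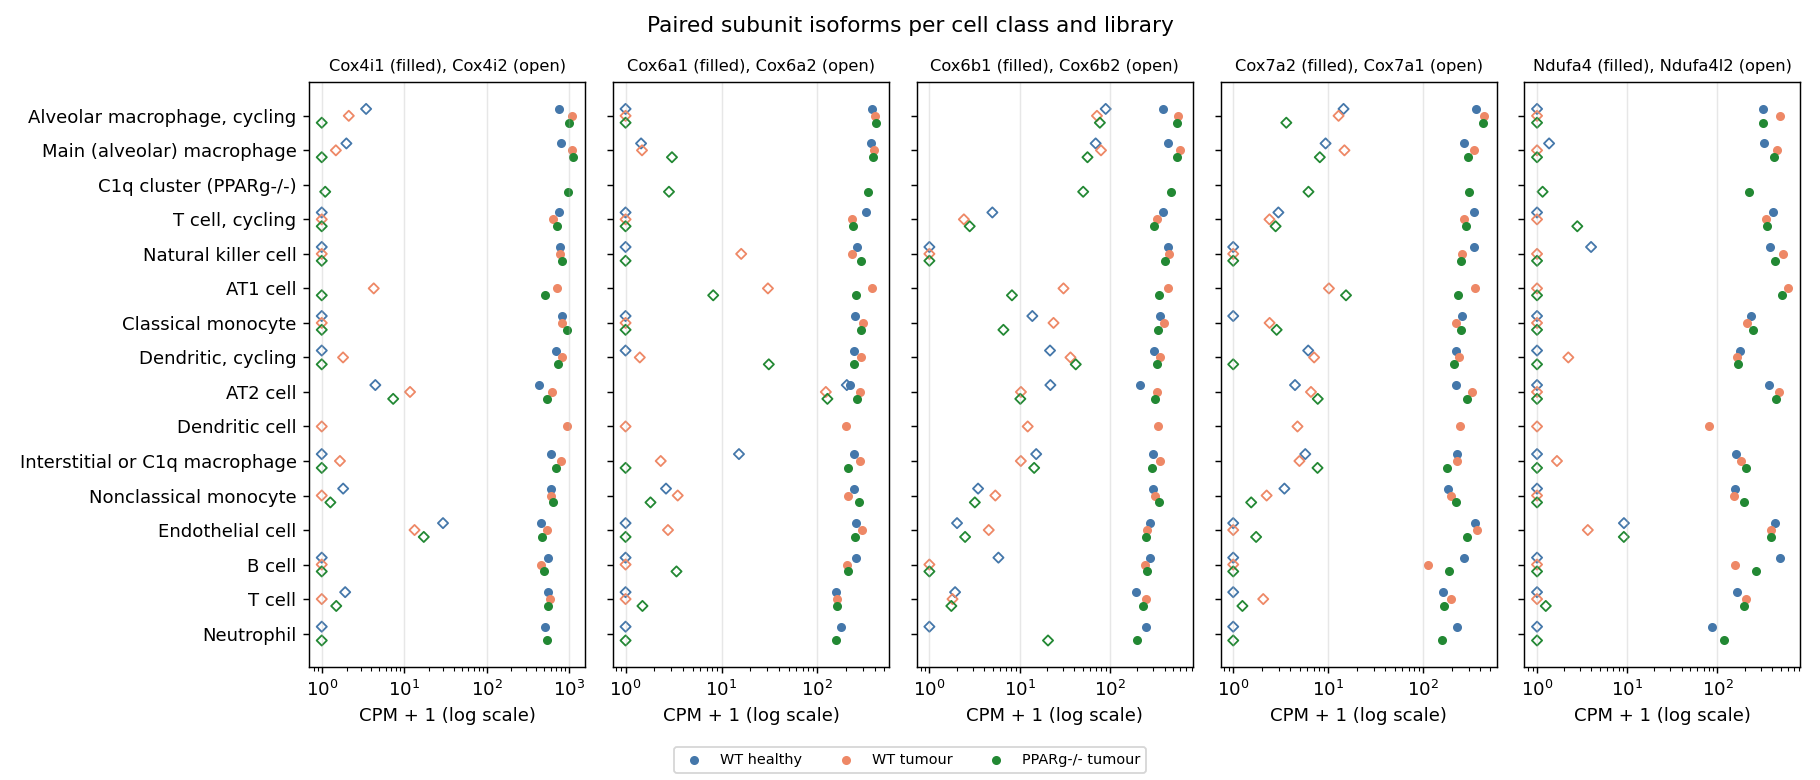
CPM plus 1 on a log axis for 5 pairs of subunit forms, per cell class, with the widely expressed form filled, the restricted form open and colours for the 3 libraries. Open points for Cox6a2 stand near the filled points in AT2 cells (201, 121 and 126 CPM), and those for Cox6b2 are highest in alveolar macrophages.

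Promoter sequences are shown for 5 members on which the levels above and the C1q comparison below turn: the ubiquitous forms Cox6a1 and Cox6b1, the restricted form Cox6b2, and Ndufa4 and Atp5g3. They are the 250 bases before the RefSeq gene start in GRCm38.p6, each on the minus strand and printed 5′ to 3′ in the direction of the gene, at chr5:115348959-115349208, chr7:30626115-30626364, chr7:4753095-4753344, chr6:11907451-11907700 and chr2:73911327-73911576. Capitals mark matches on either strand to letters searched for by script: GCGC, any base, then TGCGC for NRF1 and CCGGAAG for ETS factors, which include GABP, both known regulators of respiratory chain genes, and TCAAGGTCA for the estrogen-related receptors.
Cox6a1: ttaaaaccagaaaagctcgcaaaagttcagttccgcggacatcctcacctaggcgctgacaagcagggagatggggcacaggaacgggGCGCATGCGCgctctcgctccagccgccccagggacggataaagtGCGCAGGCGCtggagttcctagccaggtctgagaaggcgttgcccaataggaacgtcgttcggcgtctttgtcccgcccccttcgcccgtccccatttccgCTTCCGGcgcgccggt
Cox6b1: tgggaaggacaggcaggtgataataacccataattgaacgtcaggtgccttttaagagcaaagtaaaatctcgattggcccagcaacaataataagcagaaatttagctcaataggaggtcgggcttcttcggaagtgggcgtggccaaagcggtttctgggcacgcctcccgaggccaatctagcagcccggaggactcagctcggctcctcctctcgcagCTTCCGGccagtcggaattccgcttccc
Cox6b2: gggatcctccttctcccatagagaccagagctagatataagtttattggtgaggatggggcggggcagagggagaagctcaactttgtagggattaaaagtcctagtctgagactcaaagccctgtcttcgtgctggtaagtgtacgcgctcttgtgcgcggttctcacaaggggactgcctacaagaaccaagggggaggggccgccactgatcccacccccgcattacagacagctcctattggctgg
Ndufa4: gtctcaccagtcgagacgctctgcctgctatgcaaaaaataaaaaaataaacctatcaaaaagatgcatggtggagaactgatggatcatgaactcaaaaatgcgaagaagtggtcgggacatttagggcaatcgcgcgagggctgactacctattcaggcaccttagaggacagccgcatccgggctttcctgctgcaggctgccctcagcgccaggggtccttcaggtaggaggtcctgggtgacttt
Atp5g3: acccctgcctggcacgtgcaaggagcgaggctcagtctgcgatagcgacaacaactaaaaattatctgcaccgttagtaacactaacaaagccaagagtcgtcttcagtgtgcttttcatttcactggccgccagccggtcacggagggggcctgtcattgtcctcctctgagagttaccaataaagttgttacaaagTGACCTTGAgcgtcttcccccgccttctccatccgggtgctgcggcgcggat

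Cox6a1 holds 2 matches to the NRF1 letters and 1 to the ETS letters, Cox6b1 holds 1 ETS match, Atp5g3 holds 1 match to the estrogen-related receptor letters, and Cox6b2 and Ndufa4 hold none of these. Of the 83 members, 68 had a promoter entry, 2 of them through a synonym. The NRF1 letters were in 12 of these 68 promoters (17.6%), against 3.86% of all 27025 promoters of this length, and the ETS letters in 11 (16.2%, against 7.05%). The estrogen-related receptor letters were in 1 (1.47%, against 0.366%). AAGATGGC, the YY1 letters, and AGGTCA repeated after 1 base, a PPAR response element, were in 0 of the 68, against 1.59% and 0.037% of all promoters. At such low background shares 0 of 68 does not show that the members lack these sites. Bases after the gene start were not searched. The median GC content was 57% for the members and 52% for all promoters, and a match of letters does not show binding.

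The first comparison, WT tumour against WT healthy, sets the lungs titled tumour against those titled healthy, in macrophages that keep PPARγ. In main macrophages the summed subunit level was 17718 CPM in WT healthy and 22048 CPM in WT tumour, a log2 ratio of 0.32 (0.31 to 0.32), or 1.24-fold. The difference was spread over the chain: 77 of the 80 members that reached 20 UMIs in the 2 libraries together had a log2 ratio above 0, and the interval lay above 0 for 66 and below 0 for 1. The median log2 ratio was 0.27 for the members and -0.16 for all 11487 genes tested. By summed level the log2 ratio was 0.31 for complex I, 0.20 for complex II, 0.32 for complex III, 0.35 for complex IV and 0.29 for complex V. Few members differed strongly: 4 were higher and 0 lower by at least 1.5-fold with an interval excluding 1, the size rule used for calls here, while 7.55% of all genes tested were called higher and 15.4% lower. The count of members called depended on the setting: 25 with a 5% mitochondrial limit, 19 with TMM factors, 12 in cells thinned to 1000 UMIs and 1 with each library clustered alone. Over all non-cycling alveolar macrophage clusters together the size rule called the same 4 genes, Ndufv3, Ndufb9, Uqcrb and Cox7a1, and no other member. The background there was 7.34% of genes higher and 15.4% lower. These clusters hold 904 and 976 cells, the 847 and 942 main macrophages among them, so this is not a separate check.

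In complex I the highest ratios belonged to Ndufv3, an accessory subunit of the NADH-oxidising module, at 144 CPM in WT healthy and 244 CPM in WT tumour (log2 ratio 0.76, 0.68 to 0.85), and Ndufb9, a membrane arm subunit, at 121 and 198 CPM (0.72, 0.62 to 0.81). Both passed the size rule. Ndufs1, a core subunit that carries iron-sulfur clusters (56.9 and 51.7 CPM), and Ndufa6, an accessory subunit (196 and 194 CPM), had log2 ratios below 0, with intervals that include 0. In complex II Sdhb had the highest log2 ratio, 0.30, and Sdhc the lowest, 0.06.

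In complex III Uqcrb, which binds near the quinone pocket, stood at 247 and 381 CPM (log2 ratio 0.62, 0.56 to 0.69) and passed the size rule. Uqcrc1, a core subunit, was the lowest, at 95.9 and 99.2 CPM (0.05). In complex IV Cox7a1 passed it, at 8.38 and 13.8 CPM (93 and 200 UMIs; 0.72, 0.36 to 1.09), and Cox7c was the lowest, at 520 and 530 CPM (0.03). No member of complex V passed it: Atp5k, the subunit e that helps ATP synthase dimers form, was the highest at 298 and 437 CPM (0.55), and Atp5b, the catalytic beta subunit, the lowest at 528 and 536 CPM (0.02). The lowest members of complexes III and V were a core and a catalytic subunit. Those of complexes II and IV were a membrane anchor (Sdhc) and a small subunit (Cox7c).

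**Figure D3:**
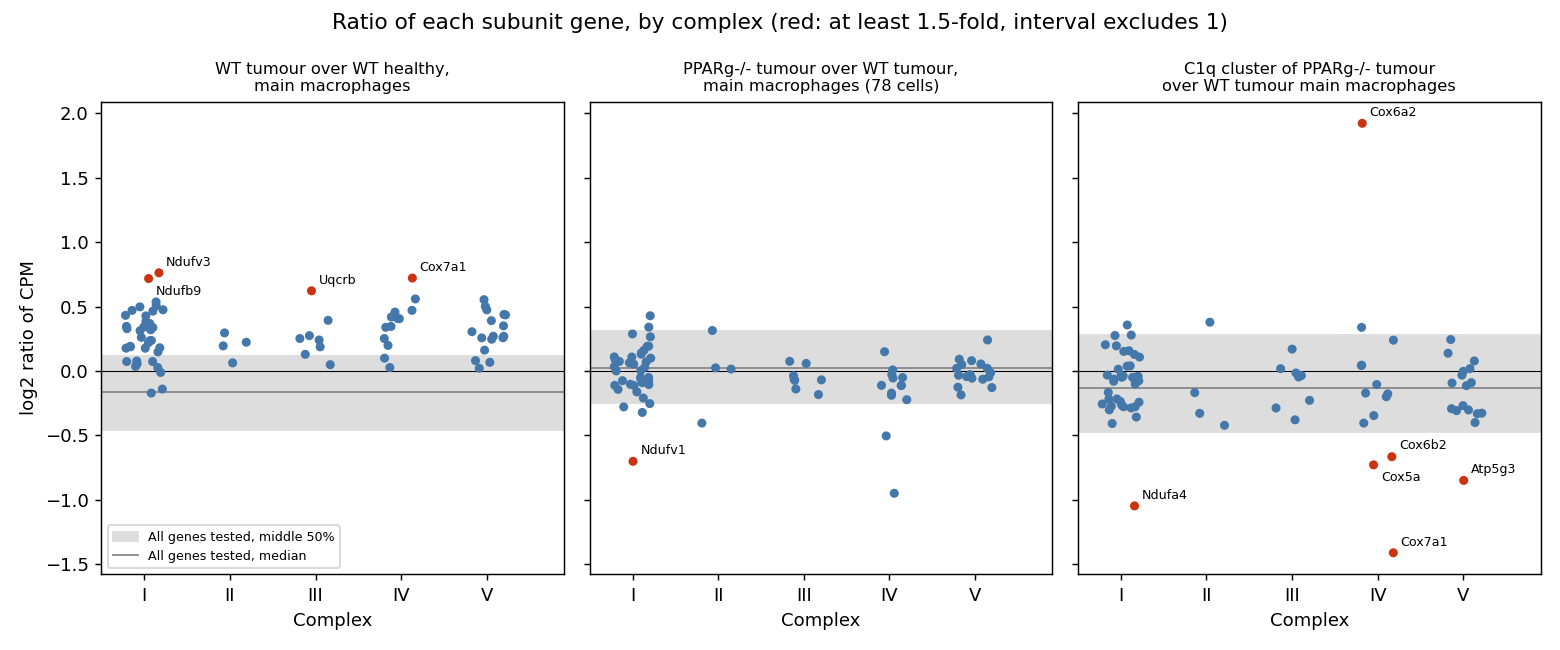
Log2 ratio of CPM for each subunit gene tested, by complex, in 3 macrophage comparisons, with the median (line) and middle 50% (grey) of all genes tested and called genes in red. In the left panel nearly all points lie above 0 and above the all-gene median of -0.16, and in the middle and right panels they lie on both sides of 0.

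The other mitochondrial lists for which a median is given here had one below 0, unlike the members. The 13 mitochondrially encoded subunits had 0 calls and a median log2 ratio of -0.10, from mt-Nd4l (830 and 658 CPM, -0.34) to mt-Co3 (11530 and 12472 CPM, 0.11). Of 44 assembly factors tested 0 were higher and 1 lower (median -0.04), that one being Nubpl, which delivers iron-sulfur clusters to complex I, at 10.5 and 6.01 CPM (-0.81); the highest was Cox15 (0.49). A list of 14 genes held electron carriers, coenzyme Q genes and Cyc1, a nuclear-encoded subunit outside the symbol rule. None of these 14 was called (median -0.07, from -0.46 for Coq6 to 0.57 for Coq7), nor were any of 17 tricarboxylic acid cycle genes (median -0.04, from -0.47 for Suclg2 to 0.51 for Idh3a). Of 78 mitochondrial ribosomal proteins 1 was higher, Mrpl52 (112 and 220 CPM, 0.97), and 1 lower, Mrpl38 (31.6 and 20.8 CPM, -0.60). The summed level of that list was higher in WT tumour, at 3803 and 4088 CPM. Of 13 biogenesis regulators tested 4 were lower and 0 higher: Myc (44.2 and 20.8 CPM, -1.09), the mitochondrial RNA polymerase Polrmt (8.65 and 4.97 CPM), Tfb1m (6.22 and 4.08 CPM) and Nrf1 (24.5 and 16.1 CPM). Hif1a was the highest of them (75.2 and 110 CPM, 0.54). Of 85 cytosolic ribosomal proteins 4 were higher (median 0.08, from -0.31 for Rps27rt to 2.83 for Rpl39l).

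Several quality measures moved between the same 2 sets of cells. A list of 15 dissociation stress genes summed to 2684 CPM in WT healthy and 1454 CPM in WT tumour, with all 15 detected in both and 11 lower. AT2 markers, summed to 183 and 309 CPM, all 9 detected, 6 higher and 1 lower. C1q markers summed to 1547 and 1296 CPM, with 9 and 12 of 12 detected and, of 8 tested, 5 higher and 2 lower. The alveolar markers, at 20508 and 19974 CPM with all 10 detected, had 2 higher and 4 lower. T cell markers stood at 7.66 and 9.67 CPM, the median depth at 12733 and 14892 UMIs per cell and the median mitochondrial share at 6.17 and 6.04%. The subunits in free RNA had a log2 ratio of 0.22 (0.21 to 0.24). The part of stress, these other markers and free RNA in the result was not tested. In cells thinned to 1000 UMIs each, which sets depth equal and gives each cell the same weight, the summed log2 ratio was 0.34.

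The second comparison, PPARg-/- tumour against WT tumour, asks what loss of PPARγ in the macrophage lineage goes with in tumour-bearing lungs. In main macrophages, with only 78 PPARg-/- cells, the summed level was 22048 CPM for WT tumour against 21691 CPM for PPARg-/- tumour, a log2 ratio of -0.02 (-0.04 to -0.00). With each library clustered alone it was 0.0496 (0.03 to 0.07) and 0 members were called, so neither the direction nor the call below holds there. Of 80 members tested, 35 lay above 0, and the median log2 ratio was -0.04, beside 0.02 for all 10742 genes. By the size rule 0 members were higher and 1 lower, where 5.76% of all genes were called higher and 3.76% lower. The member called was Ndufv1, the NADH-binding flavoprotein of complex I, at 58.2 and 35.8 CPM (log2 ratio -0.70, -1.23 to -0.21). Over all non-cycling alveolar macrophage clusters Ndufv1 was the 1 member called, beside 5.94% of genes higher and 3.72% lower. These clusters hold 976 and 80 cells, the 942 and 78 main macrophages among them, so this is not a separate check.

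The extremes of the other complexes were within the size rule. Ndufa8, an accessory subunit, was the highest of complex I at 98.7 and 133 CPM (log2 ratio 0.43). In complex II Sdhb was at 104 and 78.7 CPM (-0.40) and Sdhc at 104 and 130 CPM (0.31). In complex III the range was -0.18 (Uqcrc2) to 0.08 (Uqcrh), and in complex V -0.19 (Atp5md) to 0.24 (Atp5g1, 253 and 299 CPM). Cox7a1 was the lowest of complex IV at 13.8 and 7.15 CPM, but with 7 UMIs in the 78 cells its interval ran from -2.28 to 0.12, and Cox7a2l was the highest (0.15). The 78 cells had T cell markers at 41.9 CPM against 9.67 CPM in WT tumour, all 7 detected, and stress genes at 927 against 1454 CPM, with 2 of 15 higher and 7 lower. The part of both in these ratios was not tested.

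The lists beside them also had few calls. The mitochondrially encoded sum had a log2 ratio of 0.03, with 0 of 13 called, and 0 of 44 assembly factors and 0 of 13 regulators were called. Among the cycle genes 1 of 17 was lower, Dld, a shared subunit of the dehydrogenase complexes (58.2 and 37.8 CPM, -0.62). Of 78 mitochondrial ribosomal proteins 2 were higher and 2 lower.

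The C1q cluster, which holds most PPARg-/- macrophages, had a lower summed level than WT tumour main macrophages (20150 against 22048 CPM; log2 ratio -0.13, -0.14 to -0.12). Its median log2 ratio was -0.09 over 81 members, of which 24 lay above 0, beside -0.14 for all 12072 genes. By the size rule 1 member was higher and 5 lower; in the same comparison 15% of all genes were called higher and 18.2% lower, so calls among the members were fewer than that background. These cells differ in cell state as well as in the genotype of the animals, and the pair cannot be told apart here.

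The 5 lower members passed the size rule in a set with a median log2 ratio of -0.09. Their share lay under the 18.2% of all genes called lower. Ndufa4 was at 454 CPM in WT tumour main macrophages and 220 CPM in the C1q cluster (log2 ratio -1.05, -1.10 to -0.99). Atp5g3 was at 343 and 190 CPM (-0.85), and Cox5a, a matrix-side subunit of complex IV, at 634 and 383 CPM (-0.73). Among restricted forms, Cox6b2 was at 78.3 and 49.4 CPM (-0.67) and Cox7a1 at 13.8 and 5.19 CPM (-1.41). The higher member was Cox6a2, at 7 and 36 UMIs, or 0.48 and 1.83 CPM (log2 ratio 1.92, 0.73 to 3.34). Both levels lie below those of Cox6a2 in free RNA of the same libraries, 38.2 and 16.5 CPM. Of the paralogs, Atp5g1 and Atp5g2, Cox6b1 and Cox7a2 did not pass the size rule.

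Against the 78 main macrophages of its own library, from animals of the same genotype, the C1q cluster showed part of the same list. Whether Pparγ was deleted in the cells of either set was not checked. The summed log2 ratio was -0.11 (-0.13 to -0.09), with a median of -0.14 beside -0.15 for all 11359 genes. Ndufa4 (422 and 220 CPM, -0.94) and Atp5g3 (336 and 190 CPM, -0.82) were again lower, as were Ndufs1 (65.4 and 40.3 CPM, -0.70) and Sdhc (130 and 83.1 CPM, -0.64), and Sdhb was higher (78.7 and 135 CPM, 0.78). These 4 lower and 1 higher members stand beside 17.6% and 8.57% of all genes. Ndufa4 was also low in C1q or interstitial macrophages of all libraries (159, 180 and 208 CPM) and in nonclassical monocytes (154, 152 and 194 CPM), and high in AT1 cells (603 and 514 CPM in the tumour libraries). Atp5g3 stood at 152, 139 and 97.4 CPM in C1q or interstitial macrophages.

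In the C1q cluster against WT tumour main macrophages, 18.2% of all genes were lower and 15% higher. Of the other lists of the pathway, only that of electron carriers, coenzyme Q genes and Cyc1 had a share of lower calls above that background. Of its 14 genes 5 were lower, among them Etfa, which feeds electrons from fatty acid oxidation into the chain (163 and 78.1 CPM, -1.06). Of 17 cycle genes 2 were lower, Idh3a (47.0 and 28.3 CPM, -0.73) and Dld (58.2 and 36.4 CPM, -0.68), with a list median of -0.36. The regulators Gabpa (34.3 and 20.9 CPM) and Esrra (71.3 and 44.1 CPM), which bind ETS and estrogen-related receptor sites, were 2 of 13 called, both lower. Of 45 assembly factors 2 were higher, Uqcc2 (70.0 and 130 CPM) and Surf1 (19.2 and 31.8 CPM), and 3 lower. The mitochondrially encoded sum had a log2 ratio of -0.17 with 0 calls, and of 78 mitochondrial ribosomal proteins 0 were higher and 3 lower.

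The tumour comparison differed between cell types. With at least 20 cells in both libraries, 10 of 12 classes, main and other macrophages included, had a summed log2 ratio above 0 for WT tumour over WT healthy. Of these, 9 had an interval above 0, and 2 classes lay below 0. Cycling alveolar macrophages were the highest at 0.38 (18419 and 24044 CPM), and AT2 cells were at 0.31 (14281 and 17759 CPM) with 40 healthy cells, or 0.14 when thinned to 1000 UMIs. C1q or interstitial macrophages were at 0.23, T cells at 0.20, cycling dendritic cells at 0.16 and classical monocytes at 0.12. Endothelial cells (0.06) and nonclassical monocytes (0.04) were close to 0. In endothelial cells the mitochondrially encoded sum had a log2 ratio of -0.53 (55937 and 38684 CPM), so the nuclear and mitochondrial parts of the chain did not move together there, and in free RNA it had one of -0.72.

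**Figure D4:**
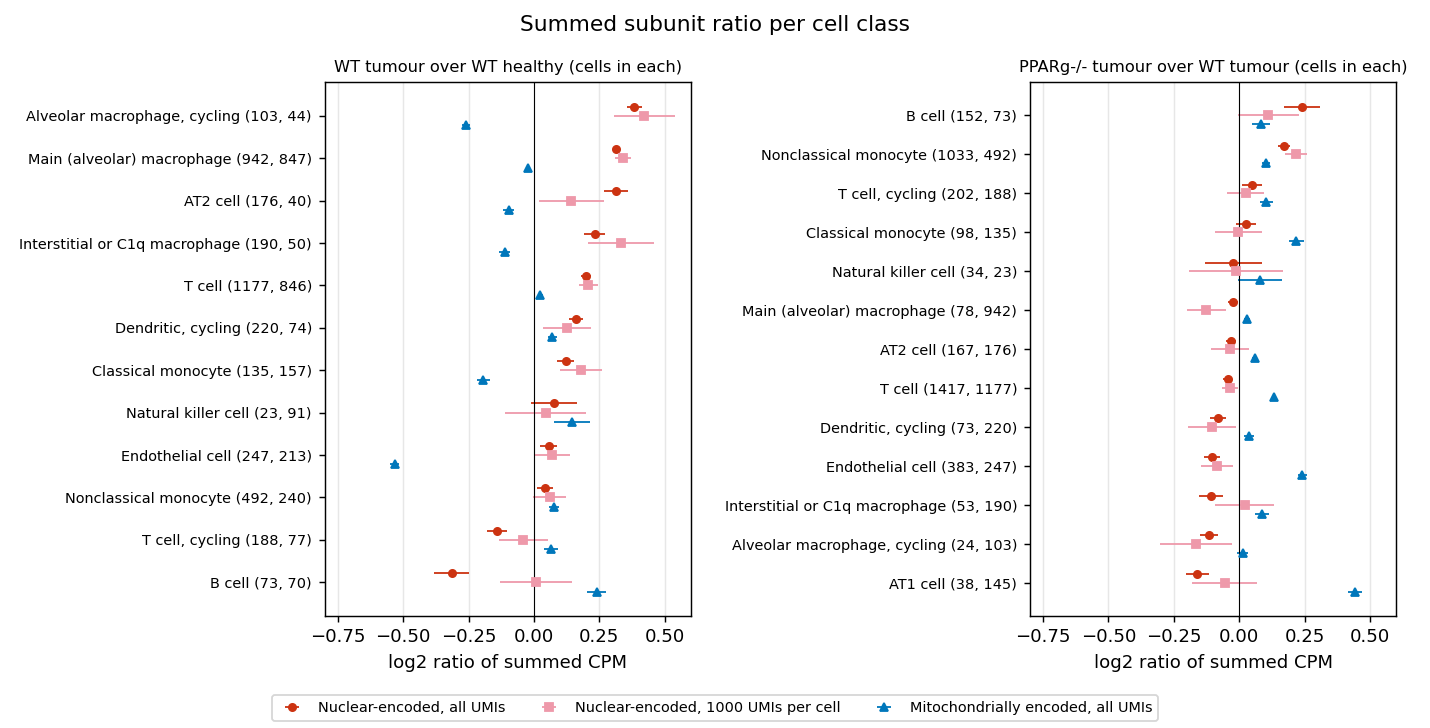
Log2 ratio of summed CPM per cell class with its 95% counting interval, for WT tumour over WT healthy (left) and PPARg-/- tumour over WT tumour (right), with all UMIs, with cells thinned to 1000 UMIs, and for mitochondrially encoded subunits. On the left B cells stand at -0.31 with all UMIs and 0.01 when thinned, and main macrophages at 0.32 and 0.34.

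Ndufv3 and Ndufb9, called in main macrophages, were also higher in C1q or interstitial macrophages (Ndufv3 73.4 and 132 CPM, Ndufb9 109 and 167 CPM). That class had 5 of 79 members higher and 0 lower, where 4.02% of all genes were higher and 8.87% lower. Its highest was Ndufa12 (54.5 and 117 CPM, log2 ratio 1.11) and its lowest Cox6b2 (14.2 and 9.28 CPM). T cells had 2 of 78 higher, Ndufb9 (82.9 and 131 CPM) and Ndufs7 (52.1 and 82.7 CPM), and 0 lower, beside 7.76% and 4.55% of all genes; the lowest was Ndufb5 (-0.11).

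Classical monocytes had 3 of 79 higher and 0 lower, beside 3.77% and 5.47%: Ndufv3 (73.0 and 119 CPM), Ndufa9 (32.9 and 56.6 CPM) and Ndufs3 (42.0 and 76.4 CPM, log2 ratio 0.86). Uqcrc1 was the lowest there (-0.27). Nonclassical monocytes, mostly of cluster 0 in WT healthy (161 of 240 cells) and cluster 1 in WT tumour (337 of 492), had 2 of 78 higher, Ndufv2 (62.3 and 95.5 CPM) and Ndufs1 (28.7 and 44.3 CPM), and 0 lower, beside 5.06% and 5.55%, with Cox5a lowest (307 and 228 CPM, -0.43). In endothelial cells Ndufs8 was higher (38.9 and 74.3 CPM, 0.93) and Cox4i2 lower (28.6 and 12.4 CPM, -1.21), 1 of 79 each way, beside 6.21% and 6.04%. The Cox4i2 value of WT tumour rests on 14 UMIs. Cox4i2 in free RNA was also lower, at 16.8 and 2.77 CPM, and the part of free RNA in this call was not tested. Cycling dendritic cells had 0 higher and 1 of 79 lower, Ndufs4 (92.8 and 56.6 CPM), beside 7.73% and 7.36%, with Cox6b2 highest (0.78).

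B cells and cycling T cells went the other way. In B cells the summed level was 15131 CPM in WT healthy and 12174 CPM in WT tumour (-0.31), with 14 of 77 members lower and 0 higher, beside 7.31% of all genes lower and 8.65% higher. The 14 include Ndufa4 (495 and 155 CPM), Atp5g1 (200 and 63.2 CPM), Uqcrq (212 and 82.6 CPM) and Ndufb6 (23 and 3 UMIs, log2 ratio -1.92), and Sdha was the highest (0.73). The B cell values rest on 70 and 73 cells of median 2998 and 2030 UMIs; thinned to 1000 UMIs the summed log2 ratio was 0.01 (-0.13 to 0.14). Markers also moved between these cells: B cell markers summed to 5781 CPM in WT healthy and 12879 CPM in WT tumour, all 7 detected and 5 higher, and alveolar macrophage markers to 1106 and 452 CPM, with 9 and 7 of 10 detected. AT2 markers were at 236 and 1064 CPM, with 6 and 8 of 9 detected, and the part of these RNAs in the subunit values was not tested. Cycling T cells stood at 19460 and 17652 CPM (-0.14), or -0.04 (-0.13 to 0.05) when thinned, with 1 of 78 members higher (Ndufb4, 47.7 and 93.0 CPM) and 2 lower (Ndufab1 and Sdhb), beside 5.44% and 6.32%. Ndufs1 had their lowest ratio (-0.73).

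For PPARg-/- tumour over WT tumour, 4 of 13 classes lay above 0 and 9 below, and the mitochondrially encoded sum lay above 0 in 13 of 13. In free RNA the log2 ratio was -0.10 for the members and 0.42 for the mitochondrially encoded sum. The 10% mitochondrial limit had removed 12.9% of barcodes in WT tumour and 7.47% in PPARg-/- tumour. The part of free RNA and of this limit in the class ratios was not tested. Both comparisons use the WT tumour library, so their values for a class are not independent. B cells were at 0.24 (12174 and 14376 CPM), or 0.11 (-0.00 to 0.23) when thinned, with 12 of 78 members higher and 0 lower, beside 3.72% and 7.29% of all genes. B cell markers stood at 12879 and 8194 CPM, alveolar macrophage markers at 452 and 158 CPM with 7 and 4 of 10 detected, and their part was not tested. The extremes of the subunits were Ndufb6 (3 and 23 UMIs, 1.92) and Sdhd (10 and 10 UMIs, -1.02). Nonclassical monocytes, with 492 and 1033 cells, were at 0.17 (13585 and 15312 CPM), or 0.22 when thinned, with 0 of 78 members called in either direction, beside 4.51% higher and 4.59% lower. Alveolar macrophage markers in these cells summed to 2068 and 1314 CPM, with 9 and 7 of 10 detected and 6 of 7 tested lower. AT2 markers summed to 1439 and 1292 CPM, all 9 detected, 6 lower and 1 higher, and stress genes to 6559 and 6935 CPM, all 15 detected, 4 higher and 3 lower. The part of these in the subunit ratio was not tested. Their members ran from Ndufa12 (-0.16) to Atp5k (238 and 342 CPM, 0.52).

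T cells had a summed log2 ratio of -0.04 and 0 of 78 members called, beside 1.5% of genes higher and 4.15% lower, from Sdhc (-0.51) to Cox7a2l (0.17). AT2 cells had -0.03 and 0 of 82 called, beside 3.23% and 5.32%, from Cox4i2 (-0.76) to Ndufv1 (0.42). Endothelial cells had -0.10 and 0 of 79 called, beside 4.22% and 3.62%, with Cox4i2 highest (0.40). Atp5g3 was the 1 member lower in classical monocytes (160 and 101 CPM, -0.67) and in cycling T cells (213 and 135 CPM, -0.66), each with 0 higher. The background was 4.06% higher and 3.16% lower in the former and 3.29% and 4.36% in the latter; the highest members were Ndufv1 (0.50) and Ndufs3 (0.67).

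C1q or interstitial macrophages stood at -0.11, or 0.02 when thinned, with 53 PPARg-/- cells. Of 78 members 0 were higher and 3 lower, Uqcrfs1, the Rieske protein of complex III (98.1 and 47.0 CPM, -1.06), Ndufv2 (84.2 and 43.7 CPM) and Ndufc2 (184 and 118 CPM), beside 4.41% of genes higher and 3.70% lower, and Ndufb10 was the highest (0.55). Cycling dendritic cells were at -0.08 with 1 of 80 higher and 0 lower, beside 2.66% and 3.97%; this was Cox6a2 with 1 and 20 UMIs, which 2 of 73 PPARg-/- cells held, 16 of them in 1 cell. Ndufab1 was their lowest member (-0.55). AT1 cells were at -0.16 from 145 and 38 cells, or -0.06 when thinned, with a mitochondrially encoded log2 ratio of 0.44.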

How the data were processed

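The authors deposited raw UMI counts per gene and barcode for all 6794880 barcodes of each library, made with Cell Ranger on mm10; the matrix header names version 4, the submitters' processing notes 6.0.1 and Seurat 4.0.1. The aligner settings and whether introns were counted were not given in the sources used here. The members and all lists were chosen with earlier results of these data known. Barcodes with at least 1000 UMIs, at least 500 genes and at most 10% mt- UMIs were kept. The mitochondrial limit removed 535, 646 and 415 barcodes, and Scrublet (expected share 6%) removed 75, 114 and 151 more. With scanpy 1.11.5, 2000 variable genes, without the members, mt- genes, Pparg and sex genes, gave 30 components, 15 neighbours and Leiden clusters at resolution 1.0, 27 in all, without batch integration. A marker was raised at 4-fold over the median cluster (10 CPM added) in at least 10% of cells, and 3 raised markers were needed for a name. After the first run 2 rules were added: a cluster led by markers of another class stays unnamed, and a C1q cluster with at least 3 alveolar markers raised is kept apart.

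Counts were summed per class and library. Ratios of CPM carry exact conditional binomial 95% intervals, levels exact Poisson ones, for genes with at least 20 UMIs over both libraries; the procedure was tested on simulated data. Genes named are, in each main-macrophage comparison, the highest and lowest of each complex and every call, plus the 5 of highest level, isoform pairs, the Sdh genes, the extremes of other classes and of lists. The values of 1 gene are not reported here, and not every list extreme that the rule names is printed. Names beyond these, the stress list, the promoters shown and the C1q comparison were chosen after values were seen. Alternatives changed 1 setting at a time, with edgeR 4.0.16 used only for TMM factors. Promoters are RefSeq, build GRCm38.p6.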

Additional observations from a re-analysis of the deposited data

Results flagged for a closer look

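In 5 cases the summed subunits moved in the opposite direction from main macrophages under the same comparison; with 1 library per group the difference between classes was not tested. For WT tumour over WT healthy, where main macrophages had a log2 ratio of 0.32, B cells had -0.31 and cycling T cells -0.14; in cells thinned to 1000 UMIs these were 0.01 (-0.13 to 0.14) and -0.04 (-0.13 to 0.05). For PPARg-/- tumour over WT tumour, where main macrophages had -0.02, or 0.0496 with each library clustered alone, on the same side as the 3 classes that follow, B cells had 0.24, cycling T cells 0.0484 and nonclassical monocytes 0.17. Thinned, these were 0.11 (-0.00 to 0.23), 0.03 (-0.05 to 0.10) and 0.22 (0.17 to 0.26). Nonclassical monocytes are the only one of the 5 whose interval excluded 0 when thinned. Thinning also gives each cell the same weight and leaves fewer UMIs, so its intervals are wider than those from all UMIs. Alveolar macrophage markers in nonclassical monocytes stood at 2068 and 1314 CPM in sum, WT tumour first, and their part was not tested.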

How the results depend on the processing

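No paired analysis was possible because each group is 1 library and the labels carry no replicate numbers. In main macrophages, WT tumour over WT healthy (summed log2 ratio 0.32, 4 members called) stayed above 0 under every alternative run. The summed log2 ratio was 0.48 with a 5% mitochondrial limit, 0.33 with doublet calls kept, 0.29 at resolution 2.0, 0.24 with each library clustered alone, 0.33 with members and mt- genes allowed in clustering, 0.32 over totals without mt- and ribosomal protein genes, 0.47 with TMM factors and 0.34 with cells thinned to 1000 UMIs. Members called were 25 with the 5% limit, 1 with libraries clustered alone, 19 with TMM factors, which move the median of all genes from -0.16 to -0.01, and 12 when thinned. For PPARg-/- over WT tumour (-0.02, 1 called) the summed log2 ratio was -0.0607 with the 5% limit (18 cells), 0.0496 with libraries clustered alone, so its direction is not stable, -0.0594 with TMM factors, -0.12 when thinned and -0.13 for the C1q cluster, an alternative chosen after seeing the data. Members called were 2 with the 5% limit, 2 with doublet calls kept, 0 with libraries clustered alone (a rule of size, with no test) and 6 for the C1q cluster. The ratio of main macrophages to the lowest class in WT tumour (1.81) was 1.73 with the 5% limit, 1.61 at 2000 UMIs, 1.70 with doublet calls kept, 1.72 with libraries clustered alone and 1.58 without mt- and ribosomal protein genes; the lowest class was nonclassical monocytes in place of B cells in the first, second and last of these. TMM factors were not run for it. The cause of these shifts was not tested. Depth limits B cells, whose rare members held 3 UMIs or fewer, and the 78 PPARg-/- main macrophages.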
